A study of Rattus norvegicus with 15 samples.

Results

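Cd4, Cd8a, Cd28, Cd74 and RT1-Da, genes of T cells and of antigen presentation by MHC class II, were followed in rat whole blood after a deep venous thrombosis, a clot in a deep vein, was modelled. They were chosen by name for their function, with earlier results of these data known, and 6 were listed by identifier. Values were used for 5 of them, out of 17599 features in the table, and all 5 passed the filter on low values, as did 11117 features in all. The kinase Lck was not analysed here. The symbols come with the list of identifiers, since the files do not pair identifiers with names.

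Each of the 5 groups held 3 libraries from male Sprague-Dawley rats, an outbred stock, aged 6 to 8 weeks and weighing 250 to 300 g. The groups were sham, which the labels set at 0 h, and 1 h, 6 h, 12 h and 72 h after modelling. The sample titles hold a code, called run label here, although the titles do not say what it stands for. The code is A&B for the 9 libraries of sham, 1 h and 72 h. For the 6 libraries of 6 h and 12 h it is C. Time and run label therefore cannot be told apart wherever 6 h or 12 h is set against sham, 1 h or 72 h, whereas 12 h against 6 h lies within run label C. Replicates carry numbers but no animal is named, so a p-value here measures the spread between libraries alone, and that spread may be technical. The labels give no drug, operation or vein for the model, and the sham group is the only control.

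A helper T cell reads antigen through its receptor together with CD4, a coreceptor that binds MHC class II on the presenting cell, and a cytotoxic T cell uses CD8, which binds MHC class I. CD28 gives the T cell its second, costimulatory signal when it meets CD80 or CD86. The class II molecule is built in B cells, dendritic cells and monocytes with the help of CD74, the invariant chain, which chaperones it and blocks its groove until a peptide is loaded. RT1-Da encodes the alpha chain of RT1-D, the rat counterpart of human HLA-DR. In rats CD4 is also carried by monocytes, and the CD8 alpha chain by natural killer cells, so neither transcript is limited to T cells.

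The libraries held 29.2 to 43.3 M reads (mega-reads), of which 4.67 to 7.65 M lay outside 5 dominant features. Each library's values had been divided by a factor that ran from 0.584 (12 h replicate 2) to 2.67 (12 h replicate 3). Lists of other T cell and MHC class II genes and of markers for 8 blood cell types could not be matched to identifiers, so the label could not be checked against markers and the part of any cell type in the results was not tested. In whole blood, fewer cells of a type and less RNA per cell cannot be told apart.

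The sequences before the start sites of Cd8a, Cd74 and RT1-Da are shown because these genes held a shared or a diverging course in the results that follow, and no entry was at hand for Cd4. They are RefSeq's for the GRCr8 assembly and are printed 5′ to 3′ on the plus strand, up to the first annotated start of each gene, from chr4:104923866-104924115 for Cd8a, chr18:56526956-56527070 for Cd74 and chr20:4515165-4515392 for RT1-Da. Capitals mark matches on either strand to the CCAAT box, the cyclic AMP response element TGACGTCA, the ETS-type core GGAAG, the GATA-type core GATAA, the RUNX-type core TGTGGT and the X box core TAGCAAC.
Cd8a: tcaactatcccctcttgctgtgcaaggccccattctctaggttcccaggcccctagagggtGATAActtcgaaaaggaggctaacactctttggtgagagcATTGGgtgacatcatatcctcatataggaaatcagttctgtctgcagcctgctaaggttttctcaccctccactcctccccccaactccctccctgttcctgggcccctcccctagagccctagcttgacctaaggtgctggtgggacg
Cd74: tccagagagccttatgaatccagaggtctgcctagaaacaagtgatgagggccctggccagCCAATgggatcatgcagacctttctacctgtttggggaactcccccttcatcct
RT1-Da: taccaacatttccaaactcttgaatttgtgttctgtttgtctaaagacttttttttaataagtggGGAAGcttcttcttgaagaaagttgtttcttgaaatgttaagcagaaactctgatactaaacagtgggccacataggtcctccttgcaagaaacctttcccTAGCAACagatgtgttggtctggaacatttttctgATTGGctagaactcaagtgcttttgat

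All 3 stretches held CCAAT or its reverse complement ATTGG, a sequence that is also the core of the Y box of class II promoters. Cd8a is not a class II gene, and whether any of these matches is a Y box was not tested. In Cd74 the match came before the X box core TAGCAAC, and in RT1-Da it came after. The CCAAT or ATTGG match lay 149 bases before the first annotated start in Cd8a, 54 in Cd74 and 27 in RT1-Da. Of the 33469 promoter windows of 300 bases searched, 37.5% held CCAAT or ATTGG. The window of Cd28, which is not printed here, held no match to this core on either strand. Cd28 also correlated with Cd8a and with Cd74 over the 15 libraries in the results that follow. Whether matches in these sequences relate to the course of a gene was not tested. GATAA in Cd8a was held by 26.5% of windows and GGAAG in RT1-Da by 70.1%. TAGCAAC, the core of the X box that RFX proteins bind, was added to the search after the sequences had been seen. It lay 62 bases before the first annotated start in RT1-Da, and 3.58% of windows held it. In Cd74 it lay after the first annotated start and 72 bases before a later one, from which the RefSeq window is counted, so it is shown here as a short stretch beside that of RT1-Da, with the match in capitals, from chr18:56527122-56527151 and chr20:4515319-4515348.
Cd74: tcagttccacatTAGCAACgtgggcggagt
RT1-Da: gaaacctttcccTAGCAACagatgtgttgg

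Cd4 (ENSRNOG00000016294) had the lowest log2 difference from sham at 6 h and at 12 h among the 5 genes. Its normalised read count was 295, 251 and 273 in sham replicates 1 to 3, 346, 310 and 372 at 1 h, and 71.3, 105 and 72.9 at 6 h. It was 101, 60.0 and 162 at 12 h and 180, 299 and 143 at 72 h. Every library at 6 h and 12 h lay below every sham and 1 h library, as in 2.19% of the features tested, while 12 h replicate 3 lay above 72 h replicate 3. In reads per mega-read outside the dominant features 12 h replicate 3 had 56.8 for Cd4, above 1 h replicate 1 at 48.8, so the groups were not fully apart on that scale. At 72 h replicate 2 lay just above the sham libraries and the other libraries below them.

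**Figure D1:**
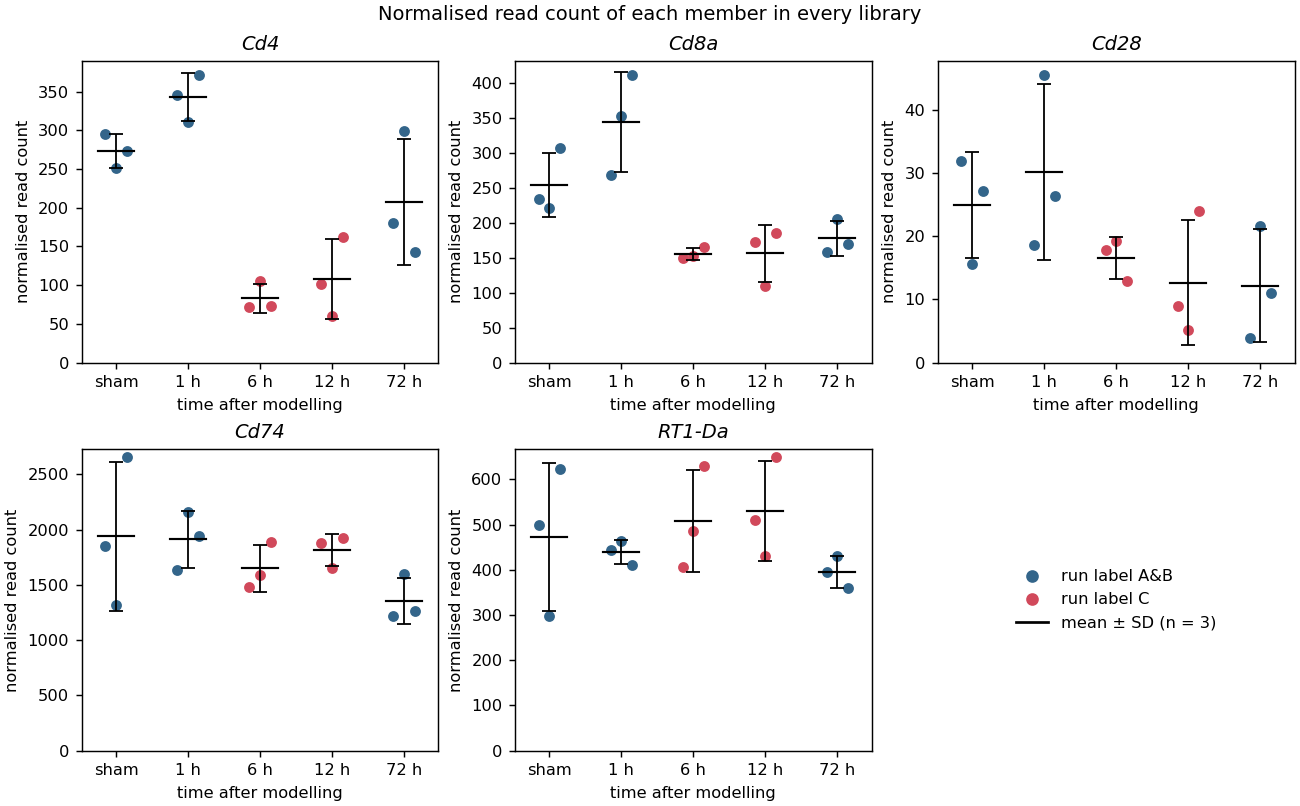
Normalised read count (linear axis from 0) of the 5 genes in each of the 15 libraries, by time after modelling. Points are libraries in replicate order, coloured by run label, and bars give the mean ± SD (n = 3). Cd4 and Cd8a sit lowest at 6 h and 12 h, whereas the sham libraries of Cd74 and RT1-Da overlap those of every other group.

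The mean of Cd4 was 273 ± 22.1 in sham and 83.1 ± 19.0 at 6 h (SD, n = 3), which is -1.72 log2 units on the log2(value + 1) scale (limma, SE 0.352, adjusted p = 0.0390). Cd4 was the 1 member of 5 called lower at 6 h, where 0.153% of all tested features were called lower. Of the features tested, 2.93% had a lower log2 difference. The call at 6 h was lost in 11 of the 15 fits without 1 library, with adjusted p from 0.0510 to 0.169, among them each fit without a sham or a 6 h library. In these fits the log2 difference itself stayed between -1.90 and -1.63.

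From 1 h, where Cd4 was highest at 343 ± 30.9, to 6 h it fell by 2.05 on the log2 scale, with an SE of 0.352 and an adjusted p of 0.00903 in limma. Of all features tested 0.198% were called lower in that comparison, and Cd4 was again the 1 member called. Without 6 h replicate 1 its adjusted p was 0.0524. Each 1 h library lay above each sham library, as in 9.6% of features, but the log2 difference of 0.33 (SE 0.352) did not pass in limma (adjusted p = 0.887) and turned to -0.11 with equal library totals.

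At 12 h Cd4 was 108 ± 51.5 (SD, n = 3), a log2 difference from sham of -1.44 (SE 0.352) that did not pass in limma (adjusted p = 0.162), beside 0.018% of features called lower. Without 12 h replicate 3, the library with the highest factor, it was -1.79 and passed (adjusted p = 0.00485), in a fit that called 6.73% of features lower. Between 12 h and 6 h, both of run label C, the log2 difference was 0.28 with a 95% confidence interval of -0.46 to 1.02. At 72 h Cd4 was 207 ± 81.2, a log2 difference of -0.46 from sham (limma adjusted p = 0.785) with an interval of -1.20 to 0.28. Each 72 h library of Cd4, Cd8a and Cd74 lay below each 1 h library, as in 8.86% of features. In reads per mega-read outside the dominant features, 72 h replicate 2 lay above 1 h replicate 1 for each of these genes (78.8 against 48.8 for Cd4). The difference between 72 h and 12 h, 0.98 with an SE of 0.352, did not pass either (limma adjusted p = 0.482).

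Averaged over 6 h and 12 h, Cd4 lay lower than over 1 h and 72 h, by a log2 difference of -1.52 with an SE of 0.249 (limma adjusted p = 0.00359). This is the contrast that time and run label share in full. Of all features 0.702% were called lower in it, Cd4 was the 1 member of 5 called, and 1.57% of features had a lower difference. It stayed past the threshold in each of the 15 fits without 1 library, between -1.69 and -1.34. When the libraries were brought to equal totals of reads outside the 5 dominant features it was -1.72 and did not pass (limma adjusted p = 0.142). The median feature moved to -0.20 with that scaling, and at 6 h against sham, where it was -0.73, Cd4 lay at -2.43 (limma adjusted p = 0.0997). In reads per mega-read outside the dominant features, Cd4 had means of 67.1 ± 15.4 in sham and 61.9 ± 12.7 at 1 h, against 12.3 ± 3.23 at 6 h. They were 25.5 ± 27.3 for 12 h and 43.4 ± 30.9 for 72 h (SD, n = 3).

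**Figure D2:**
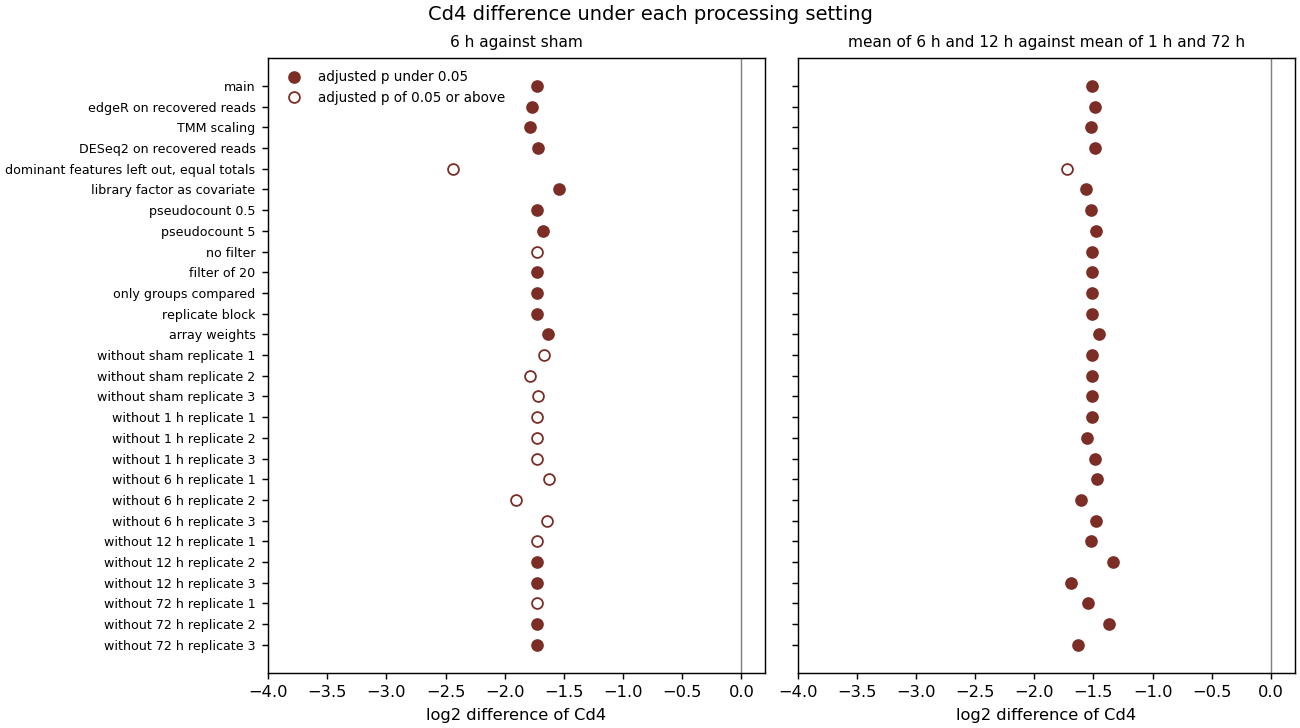
Log2 difference of Cd4 for 6 h against sham (left) and for the mean of 6 h and 12 h against that of 1 h and 72 h (right) under the main limma fit and each of 27 alternatives. Filled points passed an adjusted p of 0.05, open points did not. At 6 h the value stays between -2.43 and -1.54 on both sides of the threshold, while in the other contrast only the fit with equal totals misses it.

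Cd8a (ENSRNOG00000007178), the alpha chain of the CD8 coreceptor, stood at 234, 221 and 306 normalised reads in the sham libraries and at 269, 352 and 411 in those of 1 h. It was 149, 152 and 165 at 6 h, 173, 110 and 186 at 12 h, and 158, 206 and 169 at 72 h. All 9 libraries from 6 h onward lay below all 6 of sham and 1 h, as in 0.738% of the features tested, and sham and 1 h overlapped each other. This separation held in the deposited scaling and not in reads per mega-read outside the dominant features, where 12 h replicate 3 (65.0) and 72 h replicate 2 (54.2) lay above sham replicates 1 and 2 (47.3 and 50.1). Features whose libraries all lay below sham made up 14.2% at 6 h, 9.73% at 12 h and 9.85% at 72 h.

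No comparison of Cd8a passed in the limma fit to all libraries. Relative to sham it lay 0.43 log2 units higher at 1 h (-0.01 with equal library totals), and the differences were -0.69, -0.72 and -0.51 at the 3 later times (SE 0.284 each, limma adjusted p = 0.806, 0.226, 0.310 and 0.731). The 6 h interval, before adjustment, ran from -1.29 to -0.09. From 1 h the difference was -1.12 at 6 h (limma adjusted p = 0.0709) and -0.94 at 72 h (limma adjusted p = 0.285), the latter within run label A&B. With the library factor as a covariate these were -1.13 (limma adjusted p = 0.00228) and -0.94 (limma adjusted p = 0.0267) and passed. That fit called 4.45% and 0.783% of features lower, so the share of calls rose with it for all features. Unlike the mean of Cd4, that of Cd8a was close to its 12 h level at 72 h, at 178 ± 24.9 against 156 ± 40.7 (SD, n = 3), though the difference between the genes was not tested for this pair of times.

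Cd28 (ENSRNOG00000010283), the costimulatory receptor, had the fewest reads of the 5 genes, 3 to 64 per library. Its normalised read count was 31.9, 15.6 and 27.2 in sham, 18.5, 45.6 and 26.3 at 1 h and 17.8, 19.2 and 12.9 at 6 h. It was 8.95, 5.14 and 23.9 at 12 h and 3.95, 21.7 and 11.0 at 72 h. Neighbouring groups in the order of its means (1 h, sham, 6 h, 12 h, 72 h) all overlapped. The log2 difference from sham was lowest at 72 h, -1.17 (SE 0.629, limma adjusted p = 0.731), with an interval of -2.50 to 0.16. That interval includes both 0 and the -1.72 measured for Cd4 at 6 h.

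Cd74 (ENSRNOG00000018735), the invariant chain, was the most abundant of the 5 by read count, above 96.6% of the tested features. Its normalised read count was 1847, 1318 and 2652 in sham, 1638, 2156 and 1942 at 1 h and 1480, 1585 and 1889 at 6 h. It was 1878, 1653 and 1921 at 12 h and 1217, 1595 and 1260 at 72 h. Sham spanned the values of every other group apart from 2 libraries at 72 h. Each 72 h library lay below each 12 h library, as in 4.67% of features and in RT1-Da. In reads per mega-read outside the dominant features this was lost, with 72 h replicate 2 at 421 and 12 h replicate 2 at 176 for Cd74. For RT1-Da they were 113 and 45.8, and in the deposited scaling 429.8 and 430.0. The log2 differences of Cd74 from sham, in order of time, were 0.03, -0.18, -0.04 and -0.47 (SE 0.351 each, limma adjusted p = 0.994, 0.838, 0.974 and 0.785). The interval at 6 h was -0.92 to 0.56 and so did not reach the -1.72 measured for Cd4. The sign for Cd74 turned without sham replicate 3, to 0.07 at 6 h and 0.22 at 12 h, and at 1 h it turned with equal totals, to -0.41.

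RT1-Da (ENSRNOG00000032844), the class II alpha chain, stood at 498, 298 and 622 normalised reads in the sham libraries, 444, 464 and 410 at 1 h and 407, 487 and 629 at 6 h. It was 510, 430 and 649 at 12 h and 395, 430 and 359 at 72 h. All neighbouring groups overlapped, and the order of means (12 h, 6 h, sham, 1 h, 72 h) differed from that of Cd4 in having 6 h and 12 h on top. Against sham its log2 differences in order of time were -0.04, 0.14, 0.21 and -0.20 (SE 0.322 each, limma adjusted p = 0.988, 0.863, 0.812 and 0.915). At 6 h the interval ran from -0.54 to 0.83. Its sign at 6 h and 12 h turned with equal totals, to -0.57 and -0.30, where the median of all features lay at -0.73 and -0.54. It also turned without sham replicate 2, to -0.16 and -0.09, and at 6 h without 6 h replicate 3, to -0.02. RT1 class II genes are similar in sequence and how their reads were counted is not stated, so reads may be shared between them.

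**Figure D3:**
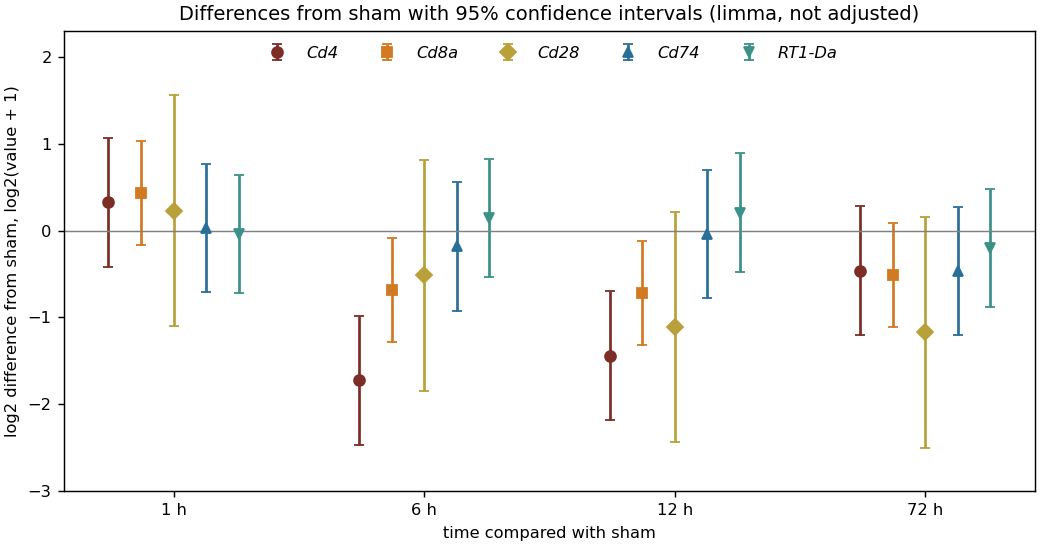
Log2 difference from sham, log2(value + 1), of the 5 genes at each time, with 95% confidence intervals from the limma fit that are not adjusted for the number of features. The intervals of Cd4 at 6 h and 12 h and of Cd8a at 6 h and 12 h lie below 0, and those of Cd74 and RT1-Da cover 0 at every time.

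Over the 5 genes, 4 lay below sham at 6 h with a median log2 difference of -0.52, beside 52.2% and -0.04 over all features tested. At 12 h 4 lay below with a median of -0.72, beside 52.9% and -0.06. At 72 h all 5 lay below with a median of -0.47, beside 53.7% and -0.05, and 0 were called (limma, 0 of 11117 features called). At 1 h 1 lay below, with a median of 0.23, beside 48.4% and 0.02. With equal library totals Cd4, Cd8a, Cd28 and Cd74 also lay below sham at 1 h, where the median feature lay at -0.40. No member was called at 1 h, where limma called 0.135% of features, or between 12 h and 6 h, where it called 0. At an unadjusted p under 0.05 limma had 423 features between 12 h and 6 h and 806 at 72 h. If no feature differed, a share of about 0.05 of the 11117 tested would be expected there. edgeR called 0 features in both, and DESeq2 called 12 between 12 h and 6 h and 29 at 72 h, with 0 members among them.

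A ratio of 2 genes within a library does not depend on the factor by which the library was scaled. The log2 ratio of Cd4 to Cd74 was -2.64, -2.39 and -3.28 in sham, -2.24, -2.79 and -2.38 at 1 h and -4.36, -3.90 and -4.68 at 6 h. It was -4.20, -4.76 and -3.56 at 12 h and -2.75, -2.41 and -3.13 at 72 h. All 6 libraries at 6 h and 12 h lay below all 9 others, which is also the split by run label. How many other features, set against Cd74, part these libraries in the same way was not counted. The ratio differed over the 5 groups (exact permutation p = 0.00225, adjusted 0.0203 over 9 tests), with an adjusted p of 0.0502 without 6 h replicate 1. Within run label A&B it did not pass (exact permutation p = 0.582, adjusted 0.861), nor did 12 h against 6 h (exact permutation p = 0.8, where 0.1 is the smallest that 3 against 3 allow). The 72 h mean of -2.76 ± 0.358 lay close to the sham mean of -2.77 ± 0.457 (SD, n = 3).

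The log2 ratio of Cd8a to Cd4 was -0.33, -0.18 and 0.17 in sham, -0.36, 0.18 and 0.15 at 1 h and 1.06, 0.53 and 1.17 at 6 h. It was 0.77, 0.86 and 0.19 at 12 h and -0.19, -0.54 and 0.24 at 72 h. Each library at 6 h lay above every library of run label A&B, and 12 h replicate 3 lay among them. How many other pairs of features part the 6 h libraries in this way was not counted. The ratio differed over the 5 groups (exact permutation p = 0.0108, adjusted 0.0486), but it did not pass in 11 of the 15 tests without 1 library, with adjusted p from 0.0310 to 0.161 over all 15. It did not differ detectably within run label A&B (exact permutation p = 0.861) or between 12 h and 6 h (exact permutation p = 0.4). The mean log2 ratio was 0.92 ± 0.339 at 6 h and -0.12 ± 0.256 in sham (SD, n = 3), and these groups were not tested against each other by themselves.

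The log2 ratio of RT1-Da to Cd74 stayed within a narrower span, from -2.24 at 1 h replicate 3 to -1.56 at 12 h replicate 3. Group means were -2.04 ± 0.135 for sham and -2.11 ± 0.199 for 1 h, and -1.72 ± 0.137, -1.79 ± 0.202 and -1.77 ± 0.137 for the 3 later times (SD, n = 3). It did not pass over the 5 groups (exact permutation p = 0.0617, adjusted 0.185), although it did without 1 h replicate 1 (adjusted 0.0482).

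**Figure D4:**
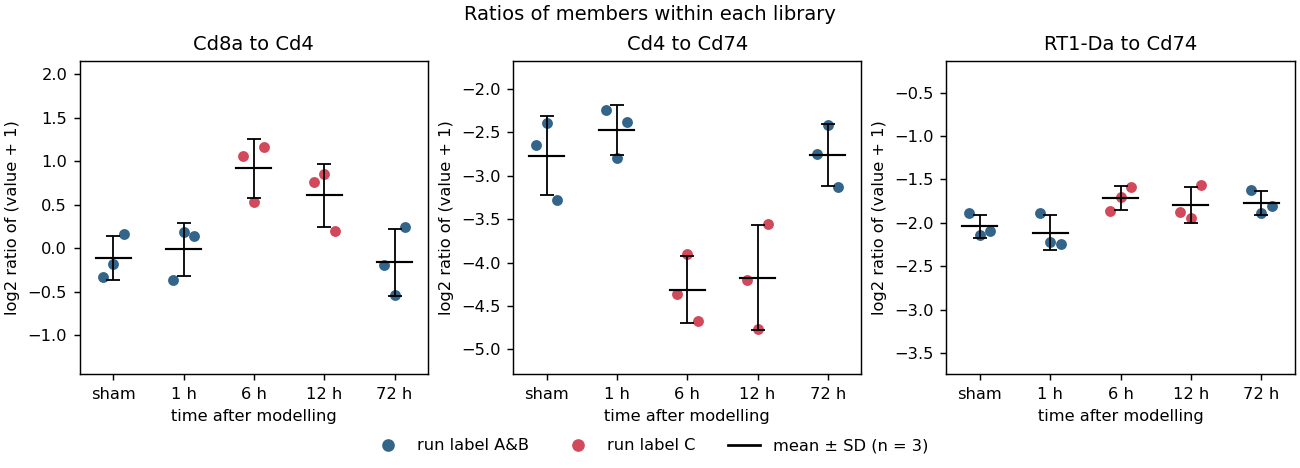
Log2 ratios of (value + 1) between genes of the same library, by time after modelling, with libraries as points coloured by run label and bars for the mean ± SD (n = 3). The 3 axes span the same number of log2 units. The Cd4 to Cd74 ratio is at most -3.56 in the 6 libraries of run label C and at least -3.28 in the 9 others.

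Of the 10 pairs of genes, 5 passed a permutation test of Pearson's r across the 15 libraries (adjusted over the pairs). Passing was thus not limited to the class II genes. The permutations shuffled all 15 libraries freely, so differences between groups and run labels enter these p-values. The log2 values of Cd74 and RT1-Da gave r = 0.751 by Pearson (permutation p = 0.00129, adjusted 0.00627 over 10 pairs) and rho = 0.725 by Spearman (permutation p = 0.00299, adjusted 0.00997). Cd8a and Cd28 gave r = 0.731 (permutation, adjusted p = 0.00627), and the pairs of Cd28 with Cd4 (r = 0.582) and with Cd74 (r = 0.590) passed with an adjusted permutation p of 0.0457 each. For Cd74 and RT1-Da r was 0.712 without the 2 libraries farthest from the median of Cd74, 0.837 within run label A&B and 0.868 within C. Cd74 had an r of 0.803 with Cd8a and 0.797 with Cd28 within run label A&B, against 0.560 and -0.0317 within C. Only 4 of the tested features were more like RT1-Da than Cd74 was, and 12 were more like Cd74 than RT1-Da was. Cd4 and Cd8a were each other's nearest member, with r of 0.803 within run label A&B and 0.761 within C, and 58 features were more like Cd4, and 62 more like Cd8a, than these were like each other. For both genes 6 h and 12 h lie apart from sham and 1 h, so an r over all libraries takes in that gap and serves here only to rank features. The libraries share their scaling factors. Over all 15, the r of each gene with those factors by Pearson was 0.326 for Cd4, 0.327 for Cd8a, 0.509 for Cd28, 0.439 for Cd74 and 0.505 for RT1-Da. None of these passed (permutation p = 0.0533 to 0.237, adjusted 0.139 to 0.237 over 5 relations), and rho by Spearman ran from 0.382 to 0.557 (permutation, adjusted p = 0.104 to 0.160). Within run label C alone the r with the factor was 0.755 for Cd4, 0.731 for Cd8a, 0.660 for Cd28, 0.650 for Cd74 and 0.893 for RT1-Da, beside the 0.868 between Cd74 and RT1-Da there. The part of the factor in the relations between genes was not tested.

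The annotated feature whose course was most like that of Cd4 was ENSRNOG00000018803, with r = 0.969 over the 15 libraries, 0.919 within run label A&B and 0.858 within C, and means of 160 normalised reads in sham and 68.6 at 6 h. The next was ENSRNOG00000004027, with r = 0.939 over the 15 libraries, 0.759 within A&B and 0.781 within C, and means of 68.4 and 23.5. The median r of all tested features with Cd4 was 0.04. The nearest feature outside the members had r over all libraries of 0.946 for Cd8a, 0.920 for Cd28, 0.877 for Cd74 and 0.853 for RT1-Da.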

How the data were processed

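RNA was sequenced from whole blood collected in PAXgene tubes, per the labels' protocols, using 1 ug of total RNA and paired reads of 150 bp. The submitters' processing notes name Bowtie 0.12.2 and Rnor_6.0, with no role. The steps of alignment and counting, the strand setting and the annotation were not given in the sources used here. The deposited table is a signal: the authors scaled each library's reads by 1 factor, as its values show, since 100% of values lay within 0.01 of a whole multiple of the library's step, which in sham replicate 1 is near 1 and so less well tested. This scaling holds the median feature equal between libraries. Of 15043 annotated identifiers, the reference table matched 0, so gene lists were not run and symbols are those given with the member list. The members, lists and tests were chosen with earlier results of these data known.

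The filter on low values asked for 10 or more in 3 or more libraries. The test was limma 3.58.1 (R 4.3.3, with trend and robust options) on log2(value + 1), two-sided, over all 15 libraries together, with Benjamini-Hochberg adjustment over 11117 features at 0.05, in 9 comparisons. All 5 analysed genes are named. Log2 ratios used exact permutation of the between-group sum of squares (two-sided for 12 h against 6 h), adjusted over 9 tests, and the planned ratios with Lck were not run. Correlations used 100000 permutations. Alternatives were edgeR 4.0.16 and DESeq2 1.42.0 on recovered reads, TMM, equal totals without dominant features (over 1% of reads), the library factor, filters, pseudocounts, the replicate block, array weights and each library left out. Simulated data with known changes were used to test the limma step, and the outcome is not reported here. Libraries of a group were compared for repeats, with a lowest chi-square per degree of freedom of 33.7. Likeness was ranked by Pearson's r among annotated features tested. Run label could not be a term, since each group carries 1 label.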

Additional observations from a re-analysis of the deposited data

How the results depend on the processing

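Each of the 45 differences (5 genes in 9 comparisons) was recomputed under 27 alternatives. No called difference turned its sign, and 17 of those that had not passed turned theirs under some alternative, 6 of them in RT1-Da and 4 in Cd74. Cd4 stayed below sham at 6 h and 12 h in all 27. The number of genes called for 6 h against sham was 0 in place of 1 without a filter (Cd4 adjusted p = 0.0596) and with equal totals, and 0 to 1 with each library left out. For 6 h against 1 h it was 0 with equal totals, 2 (Cd4 and Cd8a) in DESeq2, with the library factor and with array weights (413, 1221 and 915 features called, in place of 76), and 0 to 2 with each library left out. For the mean of 6 h and 12 h against that of 1 h and 72 h it was 0 with equal totals, 2 in the same 3 alternatives (621, 1473 and 1753 features, in place of 205), and 1 to 2 with each library left out. For 12 h against sham it was 1 (Cd4) in DESeq2 and with the library factor (313 and 445 features, in place of 8), 3 (Cd4, Cd8a and Cd28) with array weights (3604 features, 32.4%), and 0 to 1 with each library left out. For 72 h against 12 h (Cd4 higher) and 72 h against 1 h (Cd8a lower) it was 1 with the library factor and with array weights, in place of 0 (216 and 832 features in place of 22, and 199 and 228 in place of 2). In each alternative that gained a member, calls over all features rose too. Not every rise gained a member: with array weights 1 h against sham went from 15 to 352 features called, with 0 members among them. The array weight of 12 h replicate 3 was 0.202. The cause of these changes was not tested.

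With each library left out, the adjusted p over the 5 groups ranged from 0.0310 to 0.161 for the ratio of Cd8a to Cd4, 0.0482 to 0.393 for RT1-Da to Cd74 (0.0482 to 0.611 within run label A&B) and 0.0173 to 0.0502 for Cd4 to Cd74. Same-numbered libraries of different groups share only a number in the labels, and their deviations did not correlate above 0.1 in every pair: they ran from -0.328 to 0.448 (median 0.0802, 14 of 30 pairs over 0.1), beside a median of -0.0463 and 18 of 60 for different numbers. Of 15 libraries 9 correlated best with their own number, where some would do so by chance. The labels name no pairing, and whether pairing or the library factors had a part in this was not tested. With the replicate block 1 gene was called at 6 h against sham (Cd4, adjusted p = 0.0382), as without it, and no call of a member changed. Features called at 6 h went from 54 to 123. Cd28 had the lowest depth, a median of 18 reads per library.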
